A study of Mus musculus with 8 samples.

Results

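The geminin family member Gmnc and 9 genes that act with it or beside it, Gmnn, Cdt1, Ccno, Foxj1, Myb, Rfx2, Rfx3, Rfx4 and Trp73, were followed in cultured mouse neural stem/precursor cells given extra Nfia. They were chosen by symbol, 10 of the 23997 genes in each library. Gmnc was chosen with its difference between Nfia-transduced and control cells known, where it had the second largest decrease among the genes called lower, and the others were chosen for their roles with their values known, so the levels of the 10 genes are given as a description, with no p-value. How many of them passed the fit over all genes is counted only beside the share of all genes that did, and nothing rests on it. Cells transduced with Nfia, a transcription factor (nuclear factor I, or NFI, family), were set against control cells, with 3 RNA-seq libraries in each group taken 3 days after transduction. Both groups were primary adherent cultures of telencephalic cells from ICR mice at E11.5 (E11 in another label), grown with 10 ng/mL basic fibroblast growth factor. The sources used here do not give how Nfia was delivered, what drove it, what the control cells received, or whether replicate libraries had cultures of their own. P-values therefore measure only how far these libraries spread, and that spread may be technical. A Flag ChIP and an IgG ChIP sample are not analysed here.

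Multiciliated cells carry many motile cilia; in the brain they are the ependymal cells that line the ventricles. Gmnc and its relative Mcidas start their formation together with E2F4 or E2F5 and the partner DP1, and switch on Myb, Trp73, Ccno, Foxj1 and RFX genes. Geminin itself, encoded by Gmnn, does a different job in dividing cells: it binds the licensing factor Cdt1 and so keeps replication origins from being used again in the same cycle. In the early forebrain Gmnc and Trp73 are also expressed in the cortical hem and in Cajal-Retzius neurons, which arise in part from it.

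Levels are FPKM, fragments corrected for transcript length and for library size, so they can be compared between genes. The FPKM totals of the libraries lay between 474010 and 511700. Relative to control 1, the depth estimated from the steps between low values was 1.11, 0.911 and 0.761 in Nfia 1, 2 and 3 and 0.906 and 0.912 in control 2 and 3. The absolute depth is unknown, and the number of libraries limits the precision. Nfia, the transduced gene, stood at 69.0, 85.6 and 103.5 FPKM in the Nfia libraries, against 19.8, 23.9 and 22.2 FPKM in the control libraries, with introduced and endogenous transcripts counted together. The 10 neural precursor markers were all above the filter in both groups, with Sox2 at 238 ± 8.88 FPKM in Nfia and 229 ± 8.21 FPKM in control cells (SD, n = 3 each).

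The promoter of Gmnc is shown because it belongs to the gene with the largest difference of the 10 and because Nfia binds DNA. RefSeq (GRCm38.p6) gives promoter windows, from 250 bases before to 50 after a start site, for 8 of the 10 genes, 11 windows in all. Gmnc has start sites at 2 places, and this is the window of the upstream one, with the NFI core TTGGC on either strand in capitals.

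Gmnc, chr16:26991603-26991902, minus strand: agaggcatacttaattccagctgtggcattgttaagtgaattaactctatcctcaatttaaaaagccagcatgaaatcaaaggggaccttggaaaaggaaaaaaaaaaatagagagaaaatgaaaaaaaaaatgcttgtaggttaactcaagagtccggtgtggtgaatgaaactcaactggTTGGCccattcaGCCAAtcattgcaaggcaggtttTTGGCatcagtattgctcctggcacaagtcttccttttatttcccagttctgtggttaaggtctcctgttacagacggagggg

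This window holds 3 matches to TTGGC, of which 2 read forward and 1 on the other strand as GCCAA, beginning at -68, -56 and -33 from the start site. The core occurs in 46.7% of 32851 promoter windows of this length and in 8 of the 11 windows of the 10 genes, so a match is common. The first 2 matches in the Gmnc window face each other across 7 bases. That spacing, TTGGC and GCCAA with any 7 bases between, was searched for after this sequence had been read and occurs in 9 of the 32851 windows. The full NFI site, with any 5 bases between, occurs in 12 of them and in none of the 11. The second Gmnc window, at the downstream start site, holds 2 cores. FPKM do not tell which start site was used.

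The E2F motif TTTGGCG was found in 2 of the 11 windows, those of Cdt1 and Myb, and in 1.56% of all windows, both strands searched. It contains TTGGC, and the only NFI core in either window lies inside it. These stretches are shown because E2F factors drive S-phase genes such as Cdt1, with TTTGGCG in capitals.

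Cdt1, chr8:122568030-122568064, plus strand: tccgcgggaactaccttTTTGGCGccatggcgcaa
Myb, chr10:21160973-21161013, minus strand: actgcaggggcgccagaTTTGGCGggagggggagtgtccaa

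The X-box is the site of RFX factors. Its core GTTGCC stood in 4 of the 11 windows, 1 each of Rfx2, Rfx3, Ccno and Trp73, against 12.5% of all windows, and on the forward strand in the first 3 of these genes. These stretches are shown because RFX factors act on genes of the same group, with GTTGCC in capitals.

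Rfx2, chr17:56831102-56831141, minus strand: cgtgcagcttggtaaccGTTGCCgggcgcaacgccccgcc
Rfx3, chr19:28011117-28011152, minus strand: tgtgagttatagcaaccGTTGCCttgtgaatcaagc
Ccno, chr13:112987566-112987605, plus strand: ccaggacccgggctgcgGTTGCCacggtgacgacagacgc

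A match is a description of these letters only.

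Gmnc, the upstream regulator of the multiciliated cell programme, had the largest difference of the 10 genes. It was at 1.66, 1.82 and 1.67 FPKM in the Nfia libraries, against 6.60, 6.26 and 7.59 FPKM in the control libraries. Every Nfia library lay far below every control library, and the Nfia libraries differed little among themselves. The means were 1.71 ± 0.0898 FPKM in Nfia and 6.82 ± 0.694 FPKM in control cells (SD, n = 3 each), 0.251 of the control level. On the log2(FPKM + 1) scale, which understates changes of low genes, the difference was -1.52 (SE 0.09), and with a pseudocount of 0.1 it was -1.93. Leaving out any 1 library gave -1.58 to -1.45. Among the genes tested, the level of Gmnc stood at the percentile 6.80 in Nfia and 29.6 in control cells. RefSeq places it at chr16:26957235-26991675 (GRCm38.p6), with no other gene over it.

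**Figure D1:**
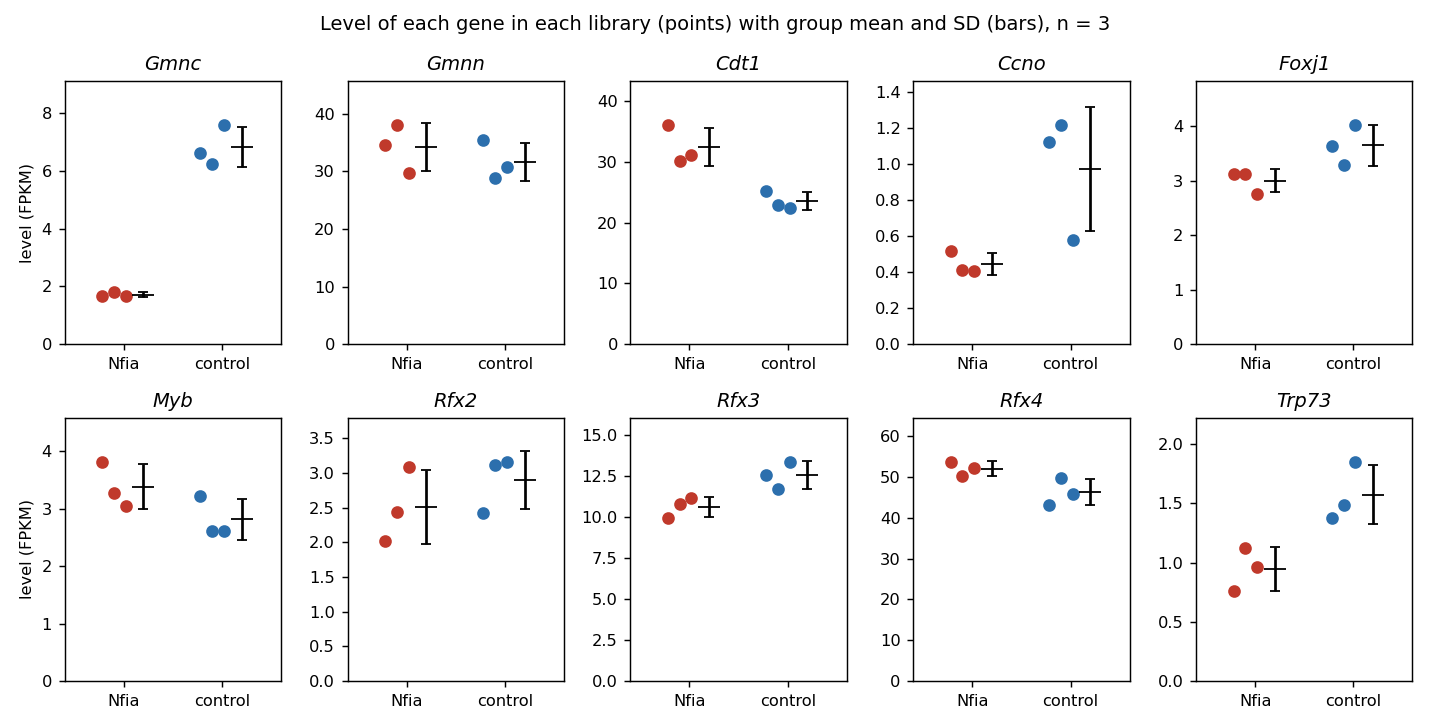
Level (FPKM, linear axes from 0) of each of the 10 genes in each library; points are libraries and bars the group mean ± SD, n = 3 per group, Nfia left and control right. Gmnc separates the groups most, at 1.66 to 1.82 FPKM in Nfia and 6.26 to 7.59 FPKM in control libraries, while Gmnn, Myb and Rfx2 overlap.

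Among the genes searched, the pattern of Gmnc over the 6 libraries was most like that of 5 other genes. Genes below the filter and symbols of the Gm-number, Rik and Mir kinds were left out of the search. Likeness was measured as the root mean square difference between log2(FPKM + 1) profiles, each centred on its own mean. The genes were the calcium-binding protein gene Calb1 (0.11), the guidance ligand gene Sema3e (0.12), the calcium-binding protein gene Scgn (0.15), the growth factor gene Fgf15 (0.17) and Zcchc12 (0.18), the values being in log2 units. Calb1 was at 3.06, 3.44 and 3.61 FPKM in Nfia libraries, against 10.7, 9.36 and 10.6 FPKM in control libraries. Zcchc12 was more abundant, at 32.8 ± 0.411 FPKM in Nfia and 75.8 ± 1.52 FPKM in control cells. That these genes were lower in Nfia follows from the way they were chosen.

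Gmnn, the geminin gene, did not separate the groups. It was at 34.7, 38.1 and 29.8 FPKM in Nfia libraries, against 35.4, 28.9 and 30.7 FPKM in control libraries. The ranges overlap, and the difference of 0.11 on the log2 scale equals its SE of 0.11. The ratio of Gmnc to Gmnn was 0.0478, 0.0477 and 0.0559 in Nfia libraries, against 0.187, 0.217 and 0.247 in control libraries. Gmnc was thus the scarcer of these relatives in all 6 libraries, and its share was lower in each Nfia library.

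Cdt1, the licensing factor that geminin holds in check, was higher with Nfia. It was at 36.1, 30.2 and 31.2 FPKM in Nfia libraries, against 25.2, 22.95 and 22.4 FPKM in control libraries. The groups did not overlap, and the difference was 0.45 on the log2 scale (SE 0.08). The ratio of Cdt1 to Gmnn was 1.04, 0.792 and 1.05 in Nfia libraries, against 0.712, 0.795 and 0.730 in control libraries. Nfia 2 lies inside the control range, so the groups overlap for this ratio.

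Trp73, the gene of the p53 relative p73, was low in both groups and lower with Nfia. It was at 0.756, 1.12 and 0.961 FPKM in Nfia libraries, against 1.37, 1.49 and 1.85 FPKM in control libraries. The groups did not overlap, and the difference was -0.40 on the log2 scale (SE 0.13), and -0.68 with a pseudocount of 0.1. The gene passed the filter of a mean of 1 FPKM through the control libraries, since the Nfia mean was 0.946 ± 0.183 FPKM. Symbol values do not separate the long and the short, N-terminally truncated forms of p73.

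Ccno, which encodes cyclin O and is needed for making the many centrioles of multiciliated cells, was the scarcest of the 10. It was at 0.519, 0.412 and 0.407 FPKM in Nfia libraries, against 1.13, 1.22 and 0.581 FPKM in control libraries. The groups did not overlap, but control 3 stood close to Nfia 1. With a mean of 0.711 FPKM over the 6 libraries Ccno was the only gene of the 10 below the filter.

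Foxj1, the factor that switches on motile cilium genes, was slightly lower with Nfia. It was at 3.12, 3.13 and 2.76 FPKM in Nfia libraries, against 3.64, 3.28 and 4.03 FPKM in control libraries. The groups did not overlap, and control 2 was only just above Nfia 2. The difference was -0.21 on the log2 scale (SE 0.09). Gmnc stood at 0.531, 0.581 and 0.603 of the level of Foxj1 in Nfia libraries, against 1.81, 1.91 and 1.89 times that level in control libraries, so their order was reversed.

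Myb, a factor of dividing progenitors that also acts early in multiciliated cells, overlapped between the groups. It was at 3.82, 3.28 and 3.05 FPKM in Nfia libraries, against 3.23, 2.61 and 2.61 FPKM in control libraries. The difference was 0.20 on the log2 scale (SE 0.10).

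The RFX genes encode factors that bind the promoters of cilium genes. Rfx2 was at 2.02, 2.43 and 3.08 FPKM in Nfia libraries, against 2.42, 3.12 and 3.16 FPKM in control libraries. The ranges overlap, with Nfia 3 near the 2 higher control libraries. Rfx3 was at 9.95, 10.8 and 11.1 FPKM in Nfia libraries, against 12.6, 11.7 and 13.4 FPKM in control libraries. The groups did not overlap, and the difference was -0.22 on the log2 scale (SE 0.07).

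Rfx4, a family member expressed in neural precursors, was the most abundant of the 10 and went the other way. It was at 53.8, 50.2 and 52.3 FPKM in Nfia libraries, against 43.3, 49.8 and 45.9 FPKM in control libraries. The groups did not overlap, but control 2 and Nfia 2 were nearly equal, and the difference was 0.17 on the log2 scale (SE 0.06). The ratio of Rfx4 to Rfx3 was 5.41, 4.67 and 4.69 in Nfia libraries, against 3.44, 4.27 and 3.43 in control libraries. Each Nfia library had the higher ratio.

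In order of level per length, Nfia cells had Rfx4, Gmnn, Cdt1, Rfx3, Myb, Foxj1, Rfx2, Gmnc, Trp73 and Ccno, and control cells had Rfx4, Gmnn, Cdt1, Rfx3, Gmnc, Foxj1, Rfx2, Myb, Trp73 and Ccno. Gmnc was thus at place 8 in Nfia and at place 5 in control cells. Neighbours whose libraries overlapped were Gmnn and Cdt1, Myb and Foxj1, and Foxj1 and Rfx2 in Nfia cells, and Rfx2 and Myb in control cells.

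**Figure D2:**
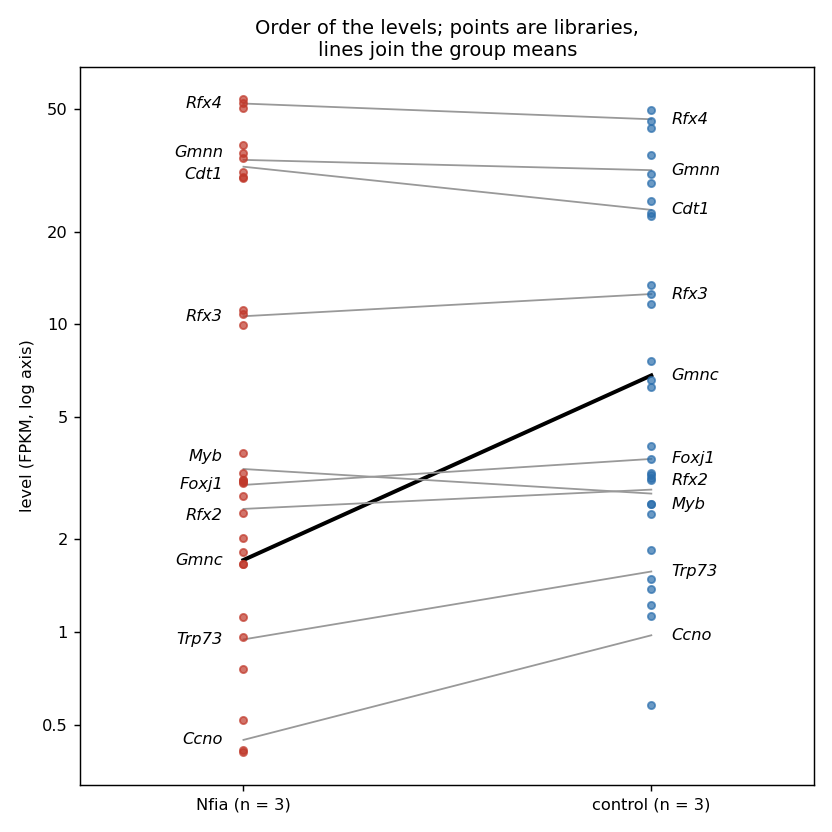
Levels (FPKM, log axis) of the 10 genes, Nfia left and control right; points are libraries (n = 3 per group) and lines join group means. The line of Gmnc crosses those of Foxj1, Myb and Rfx2, with means of 1.71 FPKM in Nfia and 6.82 FPKM in control cells.

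Of the 10 genes, 2 had every Nfia library above every control library (Cdt1 and Rfx4) and 5 had every Nfia library below (Gmnc, Ccno, Foxj1, Rfx3 and Trp73). Of these, Ccno is below the filter and so outside the genes tested, and Trp73 passed it only through the control libraries. Over the 12537 genes tested, 24.7% lay apart in the higher and 22.9% in the lower direction, 47.7% in all. In the limma fit over these genes, with Benjamini-Hochberg adjusted p under 0.05, 16.1% were called higher and 15.1% lower in Nfia, 31.3% in all. Of the 9 genes that passed the filter, 1 was called higher (Cdt1) and 2 lower (Gmnc and Rfx3). Because the choice of genes used this contrast, nothing is read from these counts. Without Nfia 1, Nfia 2, Nfia 3, control 1 or control 3 the lower count was 1, Gmnc, and without control 2 the higher count was 2, with Rfx4 added. The genes called higher over all genes numbered 2020, and 1311 without Nfia 2.

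The summed markers of cell types in which Gmnc is known to be expressed were lower in Nfia libraries, while single markers differed in direction. The 8 cortical hem markers summed to 10.6, 14.4 and 14.6 FPKM in Nfia libraries, against 21.4, 24.6 and 26.2 FPKM in control libraries, a ratio of 0.547. The 8 Cajal-Retzius markers summed to 35.3, 42.5 and 43.2 FPKM in Nfia libraries, against 61.4, 71.7 and 70.7 FPKM in control libraries, a ratio of 0.594. The groups do not overlap for either sum, and no marker of the 2 lists was listed at 0 in any library. Most of each sum came from 2 genes. In control cells Wnt8b and Wnt5a had means of 9.23 and 8.98 FPKM in a hem sum of 24.1 FPKM. Calb2 and Reln had control means of 42.1 and 16.3 FPKM in a Cajal-Retzius sum of 67.9 FPKM. Both sums were lowest in the replicate 1 library of each group, whereas Gmnc in control cells was lowest in control 2. Of 3 hem markers tested, 2 were lower and 0 higher by limma (0 higher at an unadjusted p under 0.05), and of 6 Cajal-Retzius markers tested 2 were lower and 0 higher (0 higher unadjusted). Among all genes tested 15.1% were lower and 16.1% higher. In a bulk sample fewer cells of a type and less RNA per cell cannot be told apart, and the part of these cell types in the level of Gmnc was not tested.

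Among the hem markers, Wnt8b, which encodes a Wnt ligand, fell to 2.05, 4.27 and 4.24 FPKM in Nfia libraries, against 6.56, 10.1 and 11.1 FPKM in control libraries (log2 difference -1.19, limma adjusted p = 0.015). Its call ended without control 2 or control 3, which left 1 hem marker lower (limma adjusted p = 0.0510 without control 2 and 0.0520 without control 3). Wnt5a fell to 6.54 ± 0.0891 FPKM in Nfia, against 8.98 ± 0.673 FPKM in control cells (log2 difference -0.40, limma adjusted p = 0.00465). Wnt3a, a defining ligand of the hem, was below the filter at 0.118, 0.0797 and 0.172 FPKM in Nfia libraries, against 0.726, 1.03 and 0.970 FPKM in control libraries. Its log2 difference was -0.76, and no test is given for it because it is below the filter. The share of all genes below the filter that lie apart was not taken, so counts of such genes are a description. Of the 5 hem markers below the filter, 3 had every Nfia library lower and 1 every Nfia library higher. That gene was Wnt2b, another Wnt ligand gene, at 0.407, 0.470 and 0.693 FPKM in Nfia libraries, against 0.373, 0.327 and 0.385 FPKM in control libraries. Gdf7 overlapped between the groups, with a mean in Nfia 1.59 times that in control cells, and the tested marker Msx1 did not pass the test (log2 difference -0.34, limma adjusted p = 0.203).

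Among the Cajal-Retzius markers, Reln, the secreted glycoprotein reelin, fell to 6.47, 8.90 and 9.89 FPKM in Nfia libraries, against 12.4, 18.5 and 17.95 FPKM in control libraries (log2 difference -0.87, limma adjusted p = 0.0141). Its call ended without control 3 (adjusted p = 0.0501), which left 1 marker of the list lower. Calb2, the calcium-binding protein calretinin, fell to 24.6 ± 1.41 FPKM in Nfia, against 42.1 ± 1.78 FPKM in control cells (log2 difference -0.75, limma adjusted p = 0.000408). The other 4 tested did not pass, among them Ebf3 at 0.915 of the control level, and Ndnf, below the filter, was at 1.01 of it. Several of these markers are also expressed by other neurons. The 10 neuron markers summed to 825 to 846 FPKM in Nfia and to 1394 to 1508 FPKM in control libraries, a ratio of 0.585. By limma 9 were lower and 0 higher (0 higher unadjusted), beside 15.1% and 16.1% of all genes tested. Those lower included Elavl4 (log2 difference -0.77, adjusted p = 0.000179), Tubb3 (-0.99, adjusted p = 0.000318), Elavl3 (-0.55, adjusted p = 0.000318) and Dcx (-0.71, adjusted p = 0.000512).

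Choroid plexus markers other than Otx2, which marks more than this tissue, were low. The 9 markers summed to 33.5 to 36.4 FPKM in Nfia and 39.9 to 42.8 FPKM in control libraries, and without Otx2 to 1.76, 3.04 and 2.45 FPKM in Nfia libraries, against 5.53, 6.56 and 5.39 FPKM in control libraries. Ttr, the thyroid hormone carrier made by the choroid plexus, was at 0.918, 0.996 and 0.668 FPKM in Nfia libraries, against 3.12, 2.32 and 2.07 FPKM in control libraries. Ttr passed the filter only through the control libraries, so no test is given for it. Kcne2 was listed at 0 in control 2.

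Neural precursor markers went both ways, with 3 of 10 higher and 4 lower by limma, beside 16.1% and 15.1% of all genes tested. The intermediate filament gene Nes (log2 difference 0.71, limma adjusted p = 0.000469) and the glutamate transporter gene Slc1a3 (0.59, adjusted p = 0.000488) rose, and Pax6 (-0.65, adjusted p = 0.00101) and Sox1 (-0.49, adjusted p = 0.00195) fell. The 6 mesenchyme markers were low in the replicate 1 library of both groups. Their sum was 4.46, 16.4 and 15.4 FPKM in Nfia 1, 2 and 3, against 5.72, 14.3 and 14.9 FPKM in control 1, 2 and 3. Gmnc stayed as far apart without both replicate 1 libraries, at a log2 difference of -1.53. Of the mesenchyme markers 0 were higher and 0 lower by limma, and 0 at an unadjusted p under 0.05. Endothelial markers summed to 1.56 to 2.09 FPKM in Nfia and 2.48 to 3.55 FPKM in control libraries. Only 1 was tested, the tight junction gene Cldn5, and it was lower (log2 difference -0.61, limma adjusted p = 0.0121). Without Cldn5 the sums of the groups overlapped, with Nfia 1 at 0.901 FPKM and control 1 at 0.776 FPKM. The 5 endothelial markers below the filter each had a lower mean in Nfia, with groups that overlap. The 5 microglia markers were all below the filter.

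**Figure D3:**
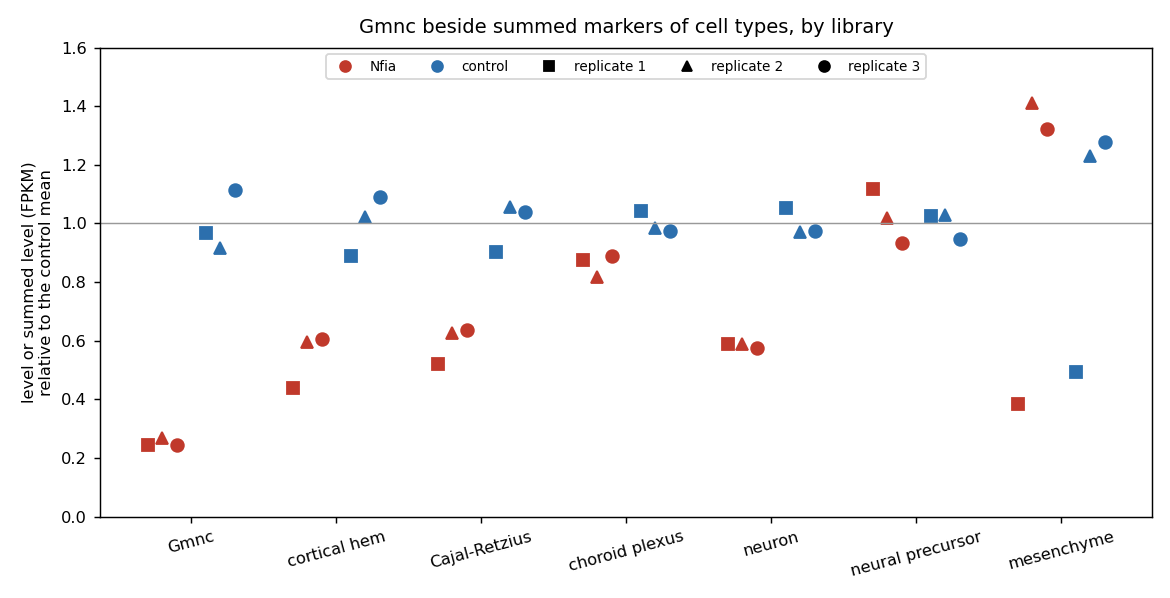
Level of Gmnc and summed levels of cell type markers (FPKM relative to the control mean, axis from 0) in each library, Nfia left and control right, with symbols for the replicate number. Gmnc is at 0.251 of the control mean, hem markers at 0.547, Cajal-Retzius markers at 0.594 and neuron markers at 0.585. Mesenchyme markers are low in both replicate 1 libraries, and the hem and Cajal-Retzius sums are also lowest there within each group.

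The partners with which Gmnc acts were present, and its relative Mcidas was scarce. Mcidas, which follows Gmnc in the same programme, was listed at 0 in Nfia 1 and was at 0.0189 and 0.0678 FPKM in Nfia 2 and 3, against 0.206, 0.266 and 0.245 FPKM in the control libraries. It was below the filter, so no test is given for it, and its log2 difference was -0.27. On chromosome 13, Mcidas begins 2802 bases after the end of Ccno. Its promoter window belongs to a start site inside the annotated gene and holds the X-box core at -195 from that site. In the Ccno window the core is at -219 from the start site of Ccno. The next gene of the locus on the list, Cdc20b, was at 0.197, 0 and 0.0358 FPKM in Nfia libraries, against 0.163, 0.331 and 0.119 FPKM in control libraries, so its groups overlap.

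Among all genes tested 16.1% were higher and 15.1% lower by limma. Of the 8 multiciliated commitment genes 4 were tested, with 1 higher and 0 lower by limma (0 lower unadjusted). It was Tfdp1, which encodes DP1, at 92.7 ± 1.45 FPKM in Nfia and 76.1 ± 1.69 FPKM in control cells (SD, n = 3 each; log2 difference 0.28, adjusted p = 0.00289). E2f4 was at 34.4 ± 2.09 FPKM in Nfia and 30.4 ± 1.64 FPKM in control cells, and E2f5 at 27.6 ± 1.48 FPKM in Nfia and 24.3 ± 1.29 FPKM in control cells (adjusted p = 0.073 and 0.0611). Both missed the threshold with groups that do not overlap. The deuterosome gene Deup1, listed under its older symbol Ccdc67, was at 0 in all 3 Nfia libraries and in control 1, and at most at 0.0145 FPKM.

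Motile cilium genes, the targets of Foxj1 and RFX factors, were mostly near 0. Of 30 looked for, 21 were below the filter, with means of 0.0112 to 0.835 FPKM. Of 9 tested, 3 were lower and 0 higher by limma (0 higher unadjusted), beside 15.1% lower and 16.1% higher of all genes tested. The median log2 difference was -0.18, beside 0.01 for all genes tested. Tppp3, a microtubule-associated protein gene, fell to 1.26, 1.19 and 1.42 FPKM in Nfia libraries, against 2.56, 2.83 and 2.27 FPKM in control libraries (log2 difference -0.63, adjusted p = 0.00515). Ccdc40, needed to assemble the inner parts of the motile axoneme, fell to 0.931, 1.04 and 1.25 FPKM in Nfia libraries, against 2.12, 1.79 and 2.06 FPKM in control libraries (log2 difference -0.53, adjusted p = 0.0126).

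The third was the kinase gene Stk36, at 4.31 ± 0.109 FPKM in Nfia and 5.29 ± 0.392 FPKM in control cells (log2 difference -0.24, adjusted p = 0.0351), whose call ended whichever 1 of the 6 libraries was left out, so that 2 of the list were then lower. Without both replicate 1 libraries its adjusted p was 0.117 and 1 of the list was lower. Of the 21 genes below the filter, 14 had a lower mean in Nfia, 7 had every Nfia library lower and 1 every Nfia library higher. The share of all genes below the filter that lie apart was not taken, so nothing is read from these counts. With no filter on low values 5 of the list were lower and 1 higher by limma, beside 1832 lower and 1868 higher of 19184 genes. The gene with every Nfia library higher was Hydin, which encodes a protein of the central pair of the motile axoneme, at 0.165, 0.190 and 0.178 FPKM in Nfia libraries, against 0.0712, 0.0996 and 0.114 FPKM in control libraries. Ccdc113 and Ccdc11 had means in Nfia 2.82 and 2.84 times those in control cells, with groups that overlap. Among those that were lower, the radial spoke gene Rsph1 was at 0.522, 0.0423 and 0.405 FPKM in Nfia libraries, against 0.693, 1.36 and 1.52 FPKM in control libraries. The dynein gene Dnai1, listed as Dnaic1, was at 0.365, 0.408 and 0.361 FPKM in Nfia libraries, against 0.663, 0.660 and 0.620 FPKM in control libraries. Pifo was listed at 0 in all 3 Nfia libraries and was at 0.157, 0.0578 and 0.115 FPKM in control libraries.

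Genes of intraflagellar transport and the BBSome, which build and serve primary and motile cilia alike, were more often lower than higher. Of 27 tested, 10 were lower and 1 higher by limma, 37.0% and 3.70%, beside 15.1% and 16.1% of all genes tested. The median log2 difference was -0.06. The 4 with the smallest adjusted p were Bbs4 at 6.18 ± 0.546 FPKM in Nfia and 9.06 ± 0.929 FPKM in control cells (log2 difference -0.49, limma adjusted p = 0.00839), Wdr19 (-0.42, adjusted p = 0.00846), Bbs2 (-0.41, adjusted p = 0.0118) and the dynein light intermediate chain gene Dync2li1 (-0.53, adjusted p = 0.0121). The gene that rose was Tulp3, which brings receptors into the cilium (log2 difference 0.29, adjusted p = 0.014). The lower count was 6 without Nfia 1 or Nfia 3, 5 without Nfia 2, control 1 or control 3, and 3 without both replicate 1 libraries. The higher count was 2 without Nfia 1 and 0 without Nfia 2.

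Centriole assembly genes, used by every dividing cell and in bulk by multiciliated cells, were more often higher. Of 20 tested, 7 were higher and 1 lower by limma, 35% and 5%, beside 16.1% and 15.1% of all genes tested. The median log2 difference was 0.12. Plk4, the kinase that starts centriole duplication, rose to 25.4 ± 0.781 FPKM in Nfia, against 19.8 ± 0.888 FPKM in control cells (log2 difference 0.34, limma adjusted p = 0.00323). Its partners Stil (0.48, adjusted p = 0.00484) and Cep152 (0.45, adjusted p = 0.00912) rose, and Cep120 fell (-0.30, adjusted p = 0.0145), a call that ended without Nfia 2 (adjusted p = 0.0524). The higher count was 4 without Nfia 2 or Nfia 3 and 3 without both replicate 1 libraries, and the lower count was 0 without Nfia 2 and 2 without Nfia 3.

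The other RFX and RFX complex genes did not pass the test. Of 5 tested, among them the complex genes Rfxank and Rfxap, 0 were higher and 0 lower by limma. At an unadjusted p under 0.05, 2 were higher. The shares of all genes tested were 16.1% higher and 15.1% lower. Rfx7 was at 32.8 ± 2.15 FPKM in Nfia and 29.3 ± 0.860 FPKM in control cells, and Rfx1 at 8.52 ± 0.683 FPKM in Nfia and 7.31 ± 0.787 FPKM in control cells (adjusted p = 0.0754 and 0.137). Without Nfia 1 the higher count was 1. Rfx6 was listed at 0 in all 6 libraries.

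Genes of the MYB, MuvB, E2F and retinoblastoma protein groups were in part higher. By limma 16.1% of all genes tested were higher and 15.1% lower. Of the 13 listed in these groups, 4 were higher and 0 lower by limma (0 lower unadjusted). They included the MuvB gene Lin54 (log2 difference 0.32, adjusted p = 0.00897) and Mybl2, the MYB factor of dividing cells (0.26, adjusted p = 0.0151). The others were the retinoblastoma family gene Rbl1 (0.22, adjusted p = 0.0232) and Mybl1 (0.37, adjusted p = 0.0472). The calls of Rbl1 and Mybl1 ended in several settings that leave out 1 library, so that 2 were higher without Nfia 2 or Nfia 3. In the list of p53 family and p53 regulator genes, Trp53 was at 95.8 ± 6.56 FPKM in Nfia and 81.9 ± 3.42 FPKM in control cells. Its log2 difference was 0.22 (limma adjusted p = 0.0337). This call ended without Nfia 1, Nfia 3, control 1 or control 3, leaving 0 of the list higher. The limma adjusted p of Trp53 was 0.180 without both replicate 1 libraries and 0.0508 with upper-quartile scaling. Of 3 tested in that list, Trp53 and the regulator genes Mdm2 and Mdm4, 1 was higher and 0 lower (0 lower unadjusted).

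Genes that work with Cdt1 at replication origins were in part higher. Of 20 licensing and helicase genes tested, 8 were higher and 0 lower by limma (11 higher and 0 lower unadjusted). That is 40.0% higher, beside 16.1% higher and 15.1% lower of all genes tested. The median log2 difference was 0.21. Orc1, the subunit of the origin recognition complex whose level changes through the cycle, rose to 7.08, 6.49 and 5.95 FPKM in Nfia libraries, against 3.76, 3.27 and 3.87 FPKM in control libraries (log2 difference 0.70, adjusted p = 0.00187). Mcm10 (0.35, adjusted p = 0.00723), Gins2 (0.46, adjusted p = 0.00886) and Mcmbp (0.19, adjusted p = 0.0137) also rose. The higher count was 5 without control 3 and 1 without both replicate 1 libraries.

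Genes that turn over geminin and Cdt1 or act on them were in part higher, 6 of 19 tested, with 0 lower by limma (2 lower unadjusted). That is 31.6% higher, beside 16.1% higher and 15.1% lower of all genes tested. The median log2 difference was 0.04. Dtl, which directs the destruction of Cdt1, rose to 25.05 ± 1.71 FPKM in Nfia, against 19.9 ± 0.965 FPKM in control cells (log2 difference 0.32, adjusted p = 0.00985). The cyclin A2 gene Ccna2 (0.29, adjusted p = 0.00258), Cdk1 (0.32, adjusted p = 0.00412) and Cdk2 (0.28, adjusted p = 0.00596) rose as well. Whichever 1 library was left out, the higher count was 4 to 5, while the calls named here held. Without control 2 there was 1 lower.

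**Figure D4:**
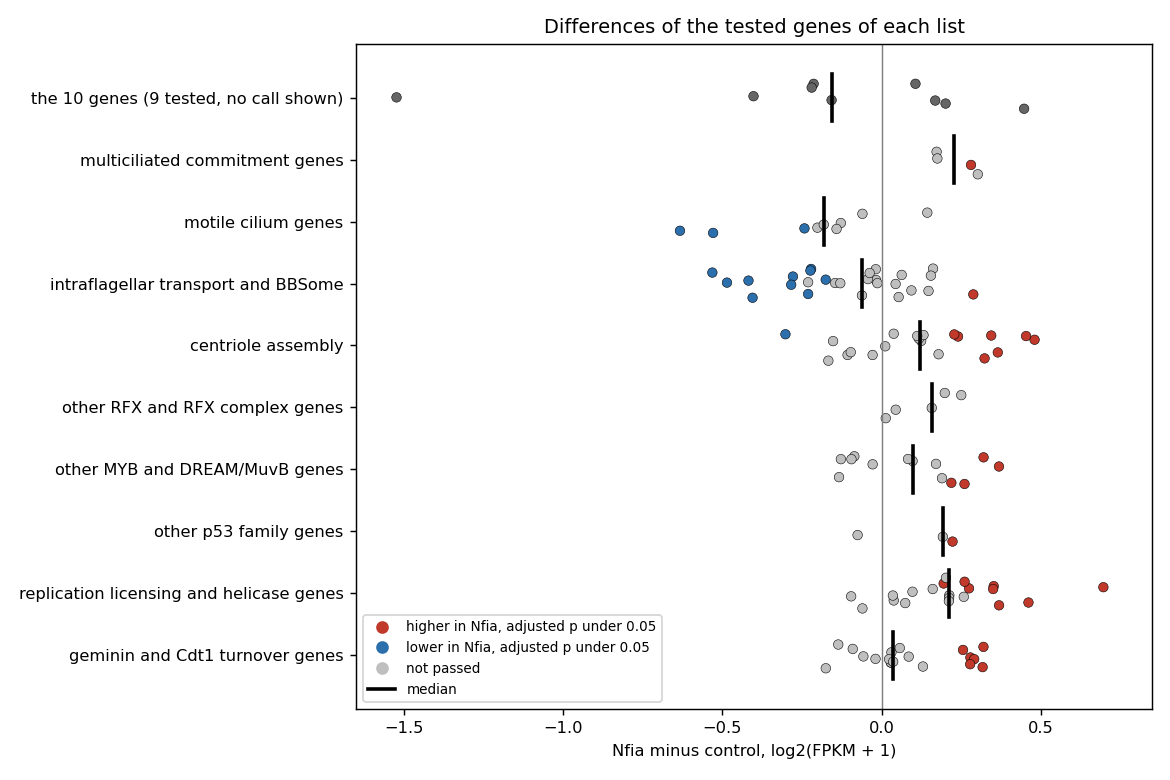
Differences (Nfia minus control, log2(FPKM + 1)) of the tested genes of each list, higher and lower calls in colour and the median as a bar; the 10 genes are grey because their calls are not shown. Licensing genes lie mostly to the right (median 0.21), motile cilium genes mostly to the left (median -0.18), and Gmnc is at -1.52.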

How the data were processed

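Poly(A) RNA was sequenced for 3 Nfia-transduced and 3 control libraries with a directional library kit, per the labels' protocols. The deposited values are FPKM, 1 per gene symbol in each library, without counts; the unit was read from the values and the tools named, since the files have no header. Tools listed per the submitters' processing notes, with no role or order, are Cufflinks, Cuffdiff, TopHat, SAMtools, Bowtie (version 1) and MACS (version 1.4), and the build is mm10. The sources used here give no annotation, filter or use of strand. Should strand have been ignored, overlapping genes share reads; RefSeq has predicted genes overlapping Rfx2, Rfx3, Rfx4 and Trp73. Absolute depth is unknown, so no counting interval is given; relative depth came from 5111 genes with a mean below 0.3 FPKM.

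Values were taken as deposited and transformed to log2(FPKM + 1). The filter kept 12537 genes whose mean in the 6 libraries reached 1 FPKM, and these were compared with limma 3.58.1 in R 4.3.3 (lmFit, eBayes with a variance trend, two-sided), with Benjamini-Hochberg adjustment over all of them; calls have an adjusted p under 0.05. With 3 libraries a group, the smallest exact permutation p would be 0.1. The fit was tested on simulated data. The 10 genes, the lists and the tests were chosen with earlier results of these data known. Of each list, up to 4 genes with the smallest adjusted p are named and, where 5 or fewer were called, each of those; Mcidas, Cdc20b, Deup1, Wnt3a, Wnt2b, Gdf7, Msx1, Ebf3, Ndnf, Rsph1, Dnai1, Pifo, Hydin, Ccdc113, Ccdc11, Tulp3, Kcne2 and Cldn5 were named after their values were seen unless this rule names them. Symbols were matched to RefSeq (GRCm38.p6), older ones by synonym.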

Additional observations from a re-analysis of the deposited data

How the results depend on the processing

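Alternatives were a pseudocount of 0.1, no filter, a mean of at least 5 FPKM, scaling by quantiles, by the upper quartile or by the median of ratios, no variance trend, a robust trend, the replicate number as a block, and leaving out each library in turn. Leaving out both replicate 1 libraries was added after seeing the data. The log2 difference of Gmnc was -1.93 with a pseudocount of 0.1 and lay between -1.58 and -1.45 without single libraries. Each of the 9 tested genes among the 10 kept its sign in every alternative that tested it. Of these genes, 1 was called lower at a mean of at least 5 FPKM, where Gmnc itself is below the filter, and 1, Gmnc, without both replicate 1 libraries. With no filter or no variance trend the 2 called lower were Gmnc and Trp73, not Rfx3, and with quantile scaling or the robust trend they were 3, Gmnc, Rfx3 and Trp73. Where a filter is used Trp73 passes it through the control libraries, so nothing is read from its calls. Without single libraries 1 to 2 were called higher and 1 to 2 lower. Over all genes the higher calls ranged from 1311 to 1724 and the lower calls from 1277 to 1620 without single libraries. Without both replicate 1 libraries 1196 were higher and 1094 lower, with fewer samples in the fit. Over all genes tested, same-numbered libraries had correlations of deviations of 0.0264, -0.00578 and 0.0461, under the bar of 0.1 for pairing. Mesenchyme markers were nevertheless low in both replicate 1 libraries. The hem and Cajal-Retzius sums were also lowest in the replicate 1 library of each group. The numbers were not taken to pair the samples. With the replicate number as a block 2130 genes were higher and 1916 lower, and 1 of the 10 genes was higher and 2 lower. In that fit the calls of Stk36, Ift74, Ift80, Ift122 and Trp53 ended (limma adjusted p = 0.0564, 0.0516, 0.0515, 0.0519 and 0.0633). It also called 1 of the other RFX and RFX complex genes higher. Values below 1 FPKM, such as those of Ccno and Mcidas, rest on few fragments whose number is unknown.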
